A study of Mus musculus with 4 samples.

Results

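The keratins and epithelial genes usable to gauge the content of 4T1 carcinoma in the lung are 8 keratin genes, Krt5, Krt7, Krt8, Krt14, Krt15, Krt17, Krt18 and Krt19, with Epcam, an epithelial surface adhesion molecule, and Trp63, the transcription factor of basal epithelial cells. All 10 were taken by symbol from the 56748 genes of the deposited table, which holds 54 keratin genes in all. Bulk RNA sequencing measured lungs of female BALB/cJ mice, injected at 7 weeks of age through the tail vein with luciferase-tagged 4T1, a mouse triple-negative mammary carcinoma line, so that tumour cells reached the lung through the circulation rather than from a mammary tumour. The 2 groups of 2 libraries each were compared after 3 weeks of treatment. The controls received saline (the treatment label names PBS instead), and the treated mice received cmLumiOpto/PARPi. cmLumiOpto is a gene therapy that pairs a luciferase inside the cell with a light-gated channel in mitochondria, carried by exosome-associated AAV bearing a CD276 antibody and given with the luciferase substrate ViviRen, and the PARP inhibitor (PARPi) was olaparib at 50 mg/kg. Every treated library thus carried both agents, and their parts in a value cannot be told apart. The methods describe dissociated lung tissue with metastases, whereas the labels speak of tumour cells harvested from lungs. The surfactant gene Sftpc was counted 16263 and 2585 times in saline 1 and saline 2 and 106882 and 34765 times in cmLumiOpto/PARPi 1 and 2, so all of these libraries held lung RNA.

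Keratins are the intermediate filament proteins of epithelia. A type I chain pairs with a type II chain, and the pair made tells layers and lineages apart. Krt8 (type II) with Krt18 (type I) is the pair of simple and luminal epithelium, joined there by Krt7 and Krt19, while Krt5 with Krt14 marks basal and myoepithelial cells, where Trp63 is active and where Krt15 and Krt17 are also found. In the lung, the alveolar and airway epithelium makes Krt7, Krt8, Krt18, Krt19 and Epcam as well, and airway basal cells make Krt5, Krt14, Krt15 and Trp63, so that none of the 10 genes belongs to carcinoma cells alone. In bulk tissue, fewer cells of a type and less RNA per cell cannot be told apart.

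The libraries summed to between 15263375 and 16755228 counts, and 3 counts, the level taken as detected, equalled 0.173 to 0.204 CPM, where CPM relates a gene's counts to the library's total after TMM scaling. This floor covers counting error only. Of the 10 genes, 9 passed edgeR's filter on low counts, and Krt5 did not. The 15167 genes that passed were fitted together by edgeR (quasi-likelihood), and p-values were adjusted over all of them by the Benjamini-Hochberg method. Log2 fold changes are cmLumiOpto/PARPi minus saline, with a standard error (SE) and an approximate 95% interval. The p-values measure only the spread between these libraries. An exact permutation of 2 against 2 libraries cannot give a two-sided p below 0.333. No gene of the table passed an adjusted p of 0.05 (0% of the tested genes, smallest adjusted p = 0.138), and so no keratin, Epcam or Trp63 did.

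Krt8 and Krt18 made up most of the signal and did not separate the groups. Krt8 had 1144 and 1560 CPM in saline 1 and saline 2 and 998 and 1640 CPM in cmLumiOpto/PARPi 1 and 2. The treated libraries thus held both the lowest and the highest Krt8 level. Krt18, its partner, had 909 and 1016 CPM with saline and 740 and 1261 CPM after treatment, again with both extremes after treatment. The log2 fold change was −0.04 for Krt8 (SE 0.29, 95% interval −0.76 to 0.69, adjusted p = 0.959), and its sign turned to 0.07 with upper-quartile scaling and to 0.03 on library totals alone. For Krt18 it was 0.06 (SE 0.27, 95% interval −0.62 to 0.73, adjusted p = 0.928). Within a group, the second library stood above the first by 0.45 (saline) and 0.72 (treated) on the log2 scale for Krt8 and by 0.16 and 0.77 for Krt18, and each of these 4 gaps was larger than the difference between the groups. Krt8 was the 70th, 36th, 81st and 46th most counted gene of the 4 libraries in the order above, so the number of reads did not limit the comparison.

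**Figure D1:**
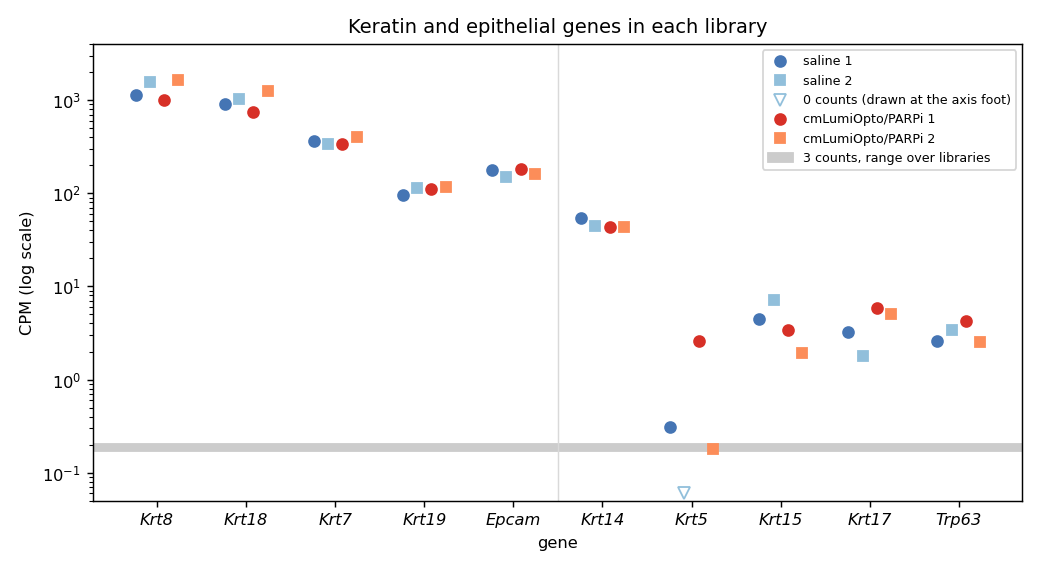
CPM on a log axis for the 10 genes, with 1 point for each library (circles, replicate 1 and squares, replicate 2 of each group, blue for saline and red or orange for cmLumiOpto/PARPi) and a grey band at 3 counts. Krt8 and Krt18 lie near 1000 CPM with overlapping groups, whereas Krt5 lies near the band in saline 1 and within it in cmLumiOpto/PARPi 2. The 0 counts of Krt5 in saline 2 are drawn as an open triangle at the foot of the axis, which is not a measured level.

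The Krt8 and Krt18 genes are neighbours on chromosome 15 (GRCm38, GENCODE M21), Krt8 at 101996698 to 102004482 on the minus strand and Krt18 at 102028180 to 102032027 on the plus strand. Per kilobase of gene length, the ratio of Krt8 to Krt18 was 0.924 and 1.13 with saline and 0.990 and 0.955 after treatment, so the type II and type I partners were measured at close to equal levels throughout. Of all pairs of tested genes among the 10, Krt8 and Krt18 had the most similar course over the 4 libraries, with a Euclidean distance of 0.217 between their centred log2 CPM, and Krt15 and Krt17 the least similar, at 2.52. Outside the 10, the nearest of 15158 genes to Krt8 by the same distance were Zfp345 (0.0385), Gm6104 (0.0721) and Carf (0.0790), all of them at under 7 CPM. With 4 libraries such likeness is a description only.

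Krt8 has a processed copy elsewhere in the genome, which matters for how its reads can be counted. The longest run of bases shared exactly by the Krt8 transcript and Krt8-ps was 299 bases long, within exons 2 to 4 of Krt8 and at 23357509 to 23357807 of chromosome 7 (plus strand) in Krt8-ps. This run is shown because reads inside it fit both genes. It is drawn from the GENCODE M21 transcripts, 5′ to 3′.
Krt8 and Krt8-ps: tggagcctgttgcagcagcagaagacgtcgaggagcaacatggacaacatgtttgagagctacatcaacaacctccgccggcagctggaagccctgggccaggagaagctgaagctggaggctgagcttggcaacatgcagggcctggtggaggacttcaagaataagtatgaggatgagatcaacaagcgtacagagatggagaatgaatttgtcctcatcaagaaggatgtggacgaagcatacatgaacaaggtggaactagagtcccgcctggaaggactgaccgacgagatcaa
Of the 1884 windows of 75 bases in the Krt8 transcript, 442 (23.5%) also occurred in another gene, either Krt8-ps or Gm36026, a noncoding RNA gene on the other strand that overlaps the 5′ end of Krt8. The table gave Krt8-ps 30, 38, 27 and 62 counts and Gm36026 8, 11, 14 and 10 counts, against 18245, 22890, 17332 and 27260 for Krt8. Both other genes were thus assigned few reads beside Krt8. How reads that fit several genes were treated, and whether strand was used, is not given in the sources used here. Krt7, Krt15, Krt17, Krt18, Krt19, Epcam and Trp63 had no such window.

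Krt7, Krt19 and Epcam, the other genes of simple epithelium, lay at similar levels in all 4 libraries, with overlapping groups. Krt7 (chromosome 15, 101411043 to 101430313) had 364 and 335 CPM with saline and 338 and 404 CPM after treatment. Krt19 (chromosome 11, 100140810 to 100148665), the smallest keratin and one without a tail domain, had 95.8 and 113 CPM with saline and 110 and 117 CPM after treatment. Epcam (chromosome 17, 87635979 to 87651129) had 176 and 149 CPM with saline and 181 and 161 CPM after treatment. In all 3 the groups overlapped. The log2 fold changes were 0.08 for Krt7 (95% interval −0.31 to 0.48, adjusted p = 0.785), 0.12 for Krt19 (−0.23 to 0.47, adjusted p = 0.666) and 0.07 for Epcam (−0.30 to 0.45, adjusted p = 0.810). These intervals leave room for a change of at most 0.48 on the log2 scale in either direction, narrower than for Krt8 and Krt18. Per kilobase of the table's gene length, the ratio of Krt7 to Krt19 ran from 0.780 to 1.00. The table gives Krt7 a length of 7049 bases, longer than the 4094 bases of its longest coding transcript in GENCODE M21, so its level per kilobase depends on that length.

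Epcam did not follow Krt8. It was lower in the second library than in the first in both groups, by 0.25 with saline and 0.16 after treatment on the log2 scale, while Krt8 was higher there. As a ratio of counts, Epcam to Krt8 was 0.154 and 0.0954 with saline and 0.181 and 0.0983 after treatment. Thus 2 genes that could each be used to gauge carcinoma content ordered the 4 libraries differently. The summed CPM of the 10 genes was 2754 and 3229 with saline and 2425 and 3637 after treatment. Krt8 and Krt18 together held 74.5% (Wilson 95% interval 74.1 to 74.9) and 79.8% (79.4 to 80.1) of the counts of the 10 genes with saline, and 71.7% (71.2 to 72.1) and 79.8% (79.5 to 80.1) after treatment, so this sum mostly repeats that pair. The intervals cover counting error only.

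Among the genes of basal epithelium, Krt14 was present in every library at a level far below Krt18, and its partner Krt5 was almost absent. Krt14 (chromosome 11, 100203162 to 100207548, minus strand) had 54.1 and 44.0 CPM with saline and 42.9 and 43.6 CPM after treatment. Both treated libraries lay below both saline libraries, narrowly in the case of saline 2, but on library totals alone the values were 53.6, 42.3, 44.5 and 43.9 and the groups overlapped. The log2 fold change was −0.18 (SE 0.16, 95% interval −0.58 to 0.22, adjusted p = 0.543). Per kilobase, Krt14 stood at 0.0486 and 0.0354 of Krt18 with saline and at 0.0474 and 0.0282 after treatment. The genes nearest to Krt14 in course were Zfp369 (0.0201), Mapk7 (0.0232) and Xpc (0.0282).

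Krt5 (chromosome 15, 101707070 to 101712898) had 5 and 0 counts with saline and 45 and 3 counts after treatment, or 0.314, 0, 2.59 and 0.181 CPM. Krt5 passed the floor clearly in cmLumiOpto/PARPi 1 alone, so no fold between the groups is given from the main fit. The fold printed further below, from the fit without the filter, rests on that library. The count of 0 in saline 2 allows up to 0.204 CPM. Per kilobase, Krt5 was 0.00464 and 0 of Krt14 with saline and 0.0483 and 0.00332 after treatment. The usual type II partner of Krt14 was thus measured at under 0.05 of the Krt14 level in each library. Trp63 (chromosome 16, 25683763 to 25892102) was low as well, at 2.57 and 3.41 CPM with saline and 4.26 and 2.53 CPM after treatment, with overlapping groups and a log2 fold change of 0.18 (SE 0.44, 95% interval −0.91 to 1.28, adjusted p = 0.836). Both Krt5 and Trp63 were highest in cmLumiOpto/PARPi 1.

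Krt15 and Krt17 were the only members with an unadjusted p under 0.05, in opposite directions, and both were low. Krt15 (chromosome 11, 100131758 to 100135928), a type I keratin of basal cells, had 4.52 and 7.15 CPM with saline and 3.40 and 1.93 CPM after treatment, from 72, 105, 59 and 32 counts. Both treated libraries lay below both saline libraries. Its log2 fold change was −1.13 (SE 0.45, 95% interval −2.24 to −0.01, adjusted p = 0.233). Krt17 (chromosome 11, 100256217 to 100261029), a type I keratin known for its induction in injured and proliferating epithelium, had 3.26 and 1.77 CPM with saline and 5.87 and 5.05 CPM after treatment, from 52, 26, 102 and 84 counts. Each treated value was above both saline values. Its log2 fold change was 1.11 (SE 0.43, 95% interval 0.06 to 2.17, adjusted p = 0.220). Without saline 2, which held the highest Krt15 and the lowest Krt17 level, the log2 fold changes were −0.78 (adjusted p = 0.671) and 0.73 (adjusted p = 0.636), and neither kept an unadjusted p under 0.05. The genes nearest in course were Sgsm1 (0.122), Tnfaip6 (0.182) and Mrgprf (0.184) for Krt15, and Coa4 (0.0765), Rab30 (0.0795) and Cxcr4 (0.0926) for Krt17.

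These counts are set beside those of all tested genes, with no test of the difference. An unadjusted p under 0.05 was found for 2 of the 9 tested members, against 21.2% of all tested genes. Of the 2, 1 was higher (9.21% of all tested genes) and 1 was lower (12.0%). The groups did not overlap in 3 of the 9, namely Krt14, Krt15 and Krt17, against 55.2% of all genes, with 1 of them higher (27.4% of all genes) and 2 lower (27.8%). The median log2 fold change of the 9 was 0.07, beside 0.02 over all tested genes, with 6 above 0 and 3 below. Log2 fold changes across the table went down with gene length (Spearman's rho = −0.37 over 15167 genes, which are not independent replicates), and over 5 length bins of near-equal size the median went from 0.31 (shortest genes) to −0.27 (longest genes). Of the 9 tested members, 7 were in the 2 bins of shortest genes, and the part of length in their values was not tested.

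**Figure D2:**
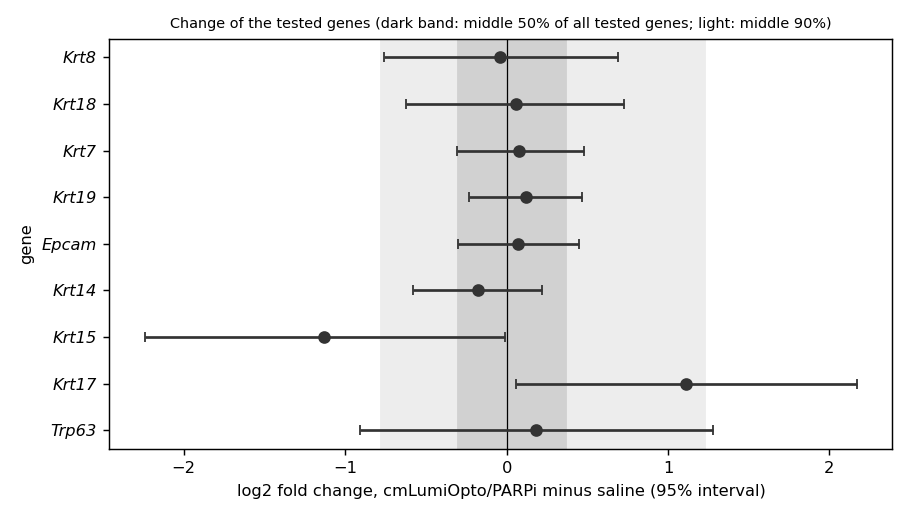
Log2 fold change (cmLumiOpto/PARPi minus saline) of the 9 tested genes, with points for the estimates and bars for the approximate 95% intervals, over bands from the 25th to the 75th (dark) and the 5th to the 95th (light) percentile of all tested genes. Krt8, Krt18, Krt7, Krt19, Epcam, Krt14 and Trp63 lie inside the dark band, whereas Krt15 at −1.13 and Krt17 at 1.11 lie outside it with wide intervals.

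Krt14, Krt16 and Krt17 are related type I genes of one cluster on chromosome 11, and the longest stretches that Krt14 shares with the other two are shown because Krt14 was many times more counted than the others. The first run is 134 bases long, in exon 1 of both Krt14 (100207017 to 100207150) and Krt16 (100248476 to 100248609). The second is 71 bases long, in exon 6 of both Krt14 (100204114 to 100204184) and Krt17 (100257439 to 100257509). All lie on the minus strand within the coding regions and are printed 5′ to 3′ from the GENCODE M21 transcripts.
Krt14 and Krt16: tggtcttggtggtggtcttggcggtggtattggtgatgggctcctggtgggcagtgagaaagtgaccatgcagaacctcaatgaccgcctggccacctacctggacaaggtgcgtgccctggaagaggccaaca
Krt14 and Krt17: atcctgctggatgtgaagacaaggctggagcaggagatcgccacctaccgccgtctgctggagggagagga
Of the windows of 75 bases in Krt14, 5.91% also occurred in Krt16, and none in Krt17. Krt16 had 8 and 12 counts with saline and 20 and 19 after treatment, and Krt14 had 862, 646, 745 and 724 counts. A small misassignment from Krt14 would therefore be a large share of Krt16, and Krt16 is reported as uncertain. In Krt5, 7.77% of the windows were shared, among others with Krt6a, which had 0, 0, 1 and 0 counts.

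Of the other 46 keratin genes, 23 had no count in any library, 14 had 1 to 9 counts over the 4 libraries and 5 passed the filter. The 5 were Krt10, Krt13, Krt16, Krt23 and Krt80. Krt10, the type I keratin of differentiating stratified epithelium, had 1.57 and 2.18 CPM with saline and 5.07 and 3.37 CPM after treatment (log2 fold change 1.17, SE 0.44, adjusted p = 0.214). Krt23 had 3.39 and 1.70 CPM with saline and 4.61 and 4.27 CPM after treatment (0.80, adjusted p = 0.356), and Krt16 gave 0.80 (adjusted p = 0.442). In these 3 the lowest treated value exceeded the highest saline value, as it did in 27.4% of all tested genes. The groups overlapped in Krt80, at 21.2, 9.61, 19.5 and 13.9 CPM, and in Krt13, at 1.76, 4.57, 1.90 and 1.56 CPM. Krt76, which did not pass the filter and was picked out after its values were seen, had 164 counts in saline 2 and 8, 4 and 2 in the other libraries. Apart from Krt80 and, in saline 2, Krt76, the keratins outside the 10 thus stayed at a low level throughout.

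The 27 genes of epithelial junctions and identity, to which Epcam belongs by function, had log2 fold changes from −0.92 (Ovol1) to 2.08 (Mal2). Those of the 9 tested members ran from −1.13 (Krt15) to 1.11 (Krt17). All 27 passed the filter, 9 lay higher in both treated libraries and 2 lower, and the median log2 fold change was 0.37 (0.02 over all genes). Of all tested genes, 27.4% lay higher and 27.8% lower. The tight-junction gene Cldn7 had 3.45 and 2.66 CPM with saline and 13.9 and 9.27 CPM after treatment (log2 fold change 1.92, SE 0.35, adjusted p = 0.138). Cldn3 had 12.1 and 6.81 CPM with saline and 35.2 and 22.0 CPM after treatment (1.60, adjusted p = 0.138). Both claudins are also made by lung epithelium. E-cadherin, Cdh1, overlapped at 267, 173, 281 and 223 CPM, and Epcam to Cdh1 stayed between 0.642 and 0.859 as a ratio of counts. Grhl2, a transcription factor that maintains epithelial identity, had 39.4 and 46.5 CPM with saline and 27.7 and 30.6 CPM after treatment (−0.56, adjusted p = 0.168), and Cd24a overlapped (−0.28, adjusted p = 0.407).

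Genes of the structures that anchor keratin filaments had negative medians. Of 9 tested desmosome genes, which join keratins to neighbouring cells, 5 lay below both saline libraries and 1 above (median −0.33). Over all tested genes, 27.8% lay below and 27.4% above, with a median of 0.02. Desmoplakin, Dsp, the linker between keratin and the desmosome, had 87.5 and 107 CPM with saline and 57.2 and 56.4 CPM after treatment (log2 fold change −0.77, SE 0.15, adjusted p = 0.138). Periplakin, Ppl, was at 120, 119, 83.9 and 85.3 CPM (−0.49, adjusted p = 0.142), while Pkp2 gave 0.48 (adjusted p = 0.401) and Perp 0.18 (adjusted p = 0.566). Of the 9 hemidesmosome genes, which fix keratins to the basement membrane, 7 lay below both saline libraries and 1 above, with a median of −0.77. Plectin, Plec, a large linker of intermediate filaments, had 606 and 814 CPM with saline and 377 and 381 CPM after treatment (−0.91, SE 0.19, adjusted p = 0.138). The laminin gene Lama3 had 65.8 and 90.4 CPM with saline and 33.4 and 44.9 CPM after treatment (adjusted p = 0.138), and Cd151 lay above, at 0.30 (adjusted p = 0.318). Of these 9 genes, 5 were in the bin of longest genes, where the median of all genes was −0.27. Of the desmosome genes named, Dsp (9659 bases) was in that bin too. Ppl (6893 bases) and Pkp2 (5360 bases) were in the next longest, with a median of −0.09, and Perp (1952 bases) in the shortest. The part of length was not tested for either list.

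Vimentin, Vim, the intermediate filament of mesenchymal cells and of many carcinoma lines, had 846, 976, 476 and 754 CPM per kilobase, beside 584, 797, 510 and 838 for Krt8, and so stood above Krt8 in both saline libraries and below it in both treated libraries. This order rests on the table's gene length for Vim, 4743 bases. Before division by length Vim exceeded Krt8 in every library, with 4013 and 4630 CPM with saline and 2257 and 3576 CPM after treatment (log2 fold change −0.57, adjusted p = 0.289). Lmna of the nuclear lamina gave −0.53 (adjusted p = 0.269), Synm 0.81 (adjusted p = 0.359) and Lmnb2 0.23 (adjusted p = 0.551). In this list of 8 genes, 3 lay below both saline libraries and none above (median −0.16), against 27.8% below and 27.4% above among all tested genes. Of 6 tested genes of the cornified envelope, the end product of stratified keratinization, 2 lay above (median 0.21), with Dmkn at 2.13 (adjusted p = 0.148) and Sfn at 0.22 (adjusted p = 0.509), while Sbsn at −0.14 and Lgals7 at −0.04 overlapped.

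The mammary genes were mixed. Of 11 tested luminal genes, 3 lay above and 3 below both saline libraries, with a median of 0.19. These counts are near the shares over all tested genes, 27.4% above and 27.8% below. The luminal mucin Muc1, which lung epithelium also makes, had 31.8 and 19.8 CPM with saline and 119 and 67.7 CPM after treatment (log2 fold change 1.86, SE 0.35, adjusted p = 0.138), and Elf5 gave 1.91 (adjusted p = 0.168). Trps1, a transcription factor common in breast carcinoma, had 215 and 272 CPM with saline and 149 and 152 CPM after treatment (−0.69, SE 0.16, adjusted p = 0.138). The milk protein gene Csn3 had 74 and 49 counts with saline and 9 and 0 after treatment (adjusted p = 0.148). Of 5 tested contractile genes of myoepithelium, 2 lay below (median −0.01), namely Acta2 at −0.42 (adjusted p = 0.220) and Tagln at −0.39 (adjusted p = 0.706), while Myh11 gave 0.38 and Cnn1 0.02. These contractile genes are not particular to mammary cells, and their source in the lung tissue was not tested. Of the receptors used to class tumours as triple-negative, Pgr had 0, 0, 4 and 3 counts, Esr1 had 19.7, 18.4, 12.7 and 12.7 CPM (−0.58, adjusted p = 0.190) and Erbb2 overlapped at 87.7, 51.9, 67.5 and 56.0 CPM. Which cells of the lung tissue gave these values was not tested.

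**Figure D3:**
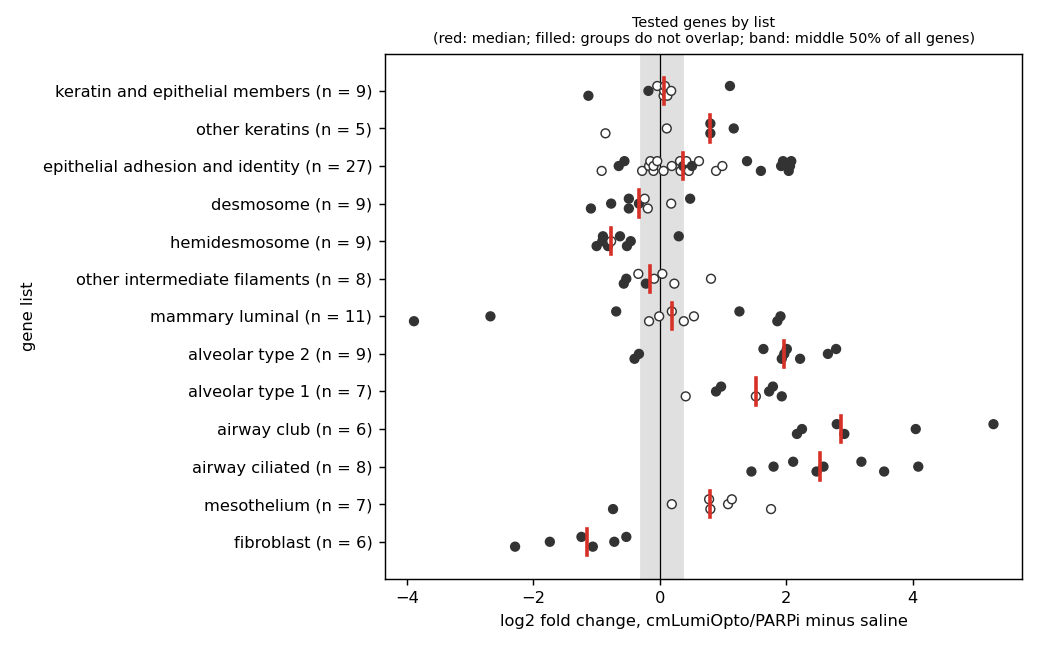
Log2 fold change (cmLumiOpto/PARPi minus saline) of each tested gene in the members and 12 other lists, filled where the groups do not overlap, with a red bar at each median and a band from the 25th to the 75th percentile of all tested genes. The members centre at 0.07, whereas the airway club list centres at 2.86 and the fibroblast list at −1.15.

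Marker lists of normal lung epithelium, the other source of these keratins, differed between libraries by far more than Krt7, Krt8, Krt14, Krt18 and Krt19. All 6 club cell and all 8 ciliated cell genes lay above both saline libraries (medians 2.86 and 2.53). So did 7 of 9 alveolar type 2 genes (median 1.97) and 5 of 7 alveolar type 1 genes (median 1.52). The share above was 27.4% over all tested genes, and the share below was 27.8%. The summed CPM was 1811, 545, 8394 and 3039 for type 2 genes, 312, 132, 878 and 431 for type 1 genes, and 1367, 123, 6546 and 3436 for club cell genes. Examples were Scgb3a2 of club cells (log2 fold change 4.05, adjusted p = 0.138), Tppp3 of ciliated cells (2.59), Hopx (1.79) and Aqp5 (1.73) of type 1 cells, and Napsa (1.64) and Sftpd (2.22) of type 2 cells. Abca3 (−0.33) and Etv5 (−0.40) of the type 2 list lay below both saline libraries. In each group the first library had the higher summed CPM of the type 1, type 2 and club cell lists and the lower Krt8 and Krt18, although single markers such as Scgb3a1, at 14.3 and 142.5 CPM in cmLumiOpto/PARPi 1 and 2, went the other way. The ratio of Krt8 to Sftpc counts was 1.12 and 8.85 with saline and 0.162 and 0.784 after treatment, so Krt8 was lower relative to this type 2 gene in both treated libraries. That ratio moves mainly with Sftpc, which had the largest log2 fold change of the type 2 list (2.79), whereas Abca3 and Etv5 fell. Its size thus depends on the marker chosen, and no ratio of Krt8 to another lung marker was taken. The other 7 of the 9 type 2 genes lay above both saline libraries, as Sftpc did. The part of lung epithelium in the keratin values was not tested.

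**Figure D4:**
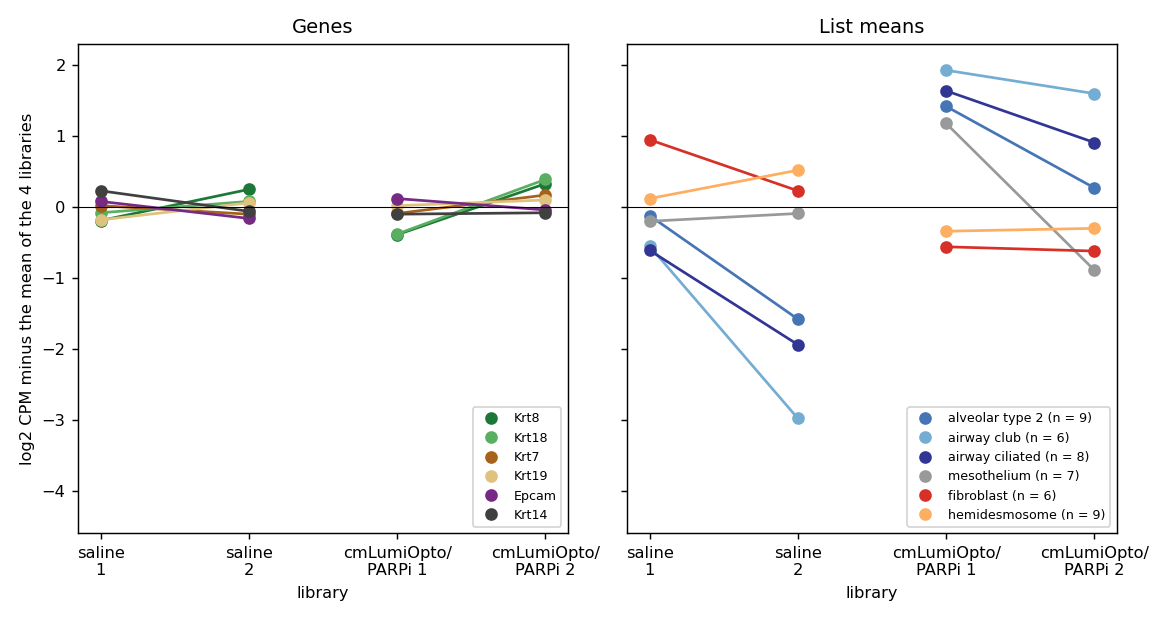
Log2 CPM minus the mean of the 4 libraries, for Krt8, Krt18, Krt7, Krt19, Epcam and Krt14 (left) and for the means of 6 marker lists (right), with lines joining the 2 libraries of a group. These 6 genes stay between −0.39 and 0.39, whereas the airway club mean runs from −2.98 in saline 2 to 1.93 in cmLumiOpto/PARPi 1. The other tested members are not drawn. Krt15 ran from 0.88 in saline 2 to −0.95 in cmLumiOpto/PARPi 2. Krt17 ran from −0.99 in saline 2 to 0.67 in cmLumiOpto/PARPi 1, and Trp63 reached 0.43 there.

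All 6 fibroblast genes lay below both saline libraries (median −1.15), with summed CPM of 5087 and 3504 with saline and 1634 and 1841 after treatment, and Col1a1, a chain of type I collagen, gave −1.74 (SE 0.26, adjusted p = 0.138) and Pdgfra −0.72 (adjusted p = 0.138). Mesothelial genes, which come with Krt8, Krt18 and Krt19 in the lining of the lung, overlapped in 6 of 7 (median 0.80, summed CPM 150, 248, 278 and 224). Nkain4 at 1.76 and Upk3b at 1.14 were highest in cmLumiOpto/PARPi 1, and Wt1 gave −0.74. Most of the sum came from Msln, at 104, 204, 151 and 201 CPM. The list mean of centred log2 CPM was −0.20 and −0.09 with saline and 1.18 and −0.89 after treatment, so the treated libraries differed. All 8 leukocyte genes overlapped (median 0.39), such as Ptprc at 0.60. Of 6 endothelial genes, Cldn5 lay above (0.90, adjusted p = 0.202), and the list had a median of 0.42. Of 3 tested airway basal markers, Bcam lay above (1.04, adjusted p = 0.231), while Ngfr and Aqp3 both gave −0.11. Dapl1, a further basal marker, had 3, 0, 7 and 1 counts. Of 3 tested cardiac muscle genes (median 1.22), Actc1 (2.39) and Myh6 (1.22) lay above on low counts. Actc1 had 12, 5, 65 and 35 counts, and Myh6 24, 6, 28 and 48. Tnnt2, the most counted of them, overlapped at 96.5, 89.9, 59.6 and 144 CPM (0.13). None of these genes passed the adjusted threshold. Of the fibroblast genes, Col1a2 (12426 bases), Pdgfra (10024 bases) and Col3a1 (9816 bases) were in the bin of longest genes. Col1a1 (6563 bases) and Dcn (5838 bases) were in the next longest, and Lum (2448 bases) in the second shortest. The part of length was not tested for any of the lists. For all tested genes, the shares below and above both saline libraries were 27.8% and 27.4%.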

How the data were processed

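The 4 lung libraries (poly-A RNA, Illumina HiSeq) were mapped by the authors to GRCm38 with HISAT2 (the labels name mm39), and the authors deposited raw read counts per gene with position, length and type. The counter, its strand setting and the read length are not given in the sources used here. Of 52073 genes matched by Ensembl identifier to GENCODE M21, 2.83% had the same position and 96.8% the same span, so coordinates are those of GENCODE M21 (GRCm38) and only the gene lengths of the table were used.

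From the counts, edgeR 4.0.16 in R 4.3.3 gave TMM factors, CPM, log2 CPM (prior count 2) and quasi-likelihood tests (filterByExpr, minimum count 10, Benjamini-Hochberg over all tested genes, threshold 0.05). The SE is the size of the log2 fold change over the square root of F, and the approximate 95% interval uses the t quantile at the moderated degrees of freedom. Libraries of 1 group were not duplicates of each other: the chi-square per degree of freedom over genes was 26.1 with saline and 44.9 after treatment, where counting alone gives about 1. Totals of 15263375 to 16755228 counts set the precision.

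The 10 genes and the gene lists were chosen with earlier results of these data known. Named genes are the members, the other tested keratins whose groups did not overlap, up to 2 genes per list and direction by smallest p, and the 3 genes nearest in Euclidean distance to Krt8, Krt14, Krt15 and Krt17. Others, such as Cdh1, Krt13, Krt80, Krt76, Sftpc, Msln, Tnnt2 and Dapl1, were added after their values were seen. Shared sequence was searched in the GENCODE M21 transcripts in windows of 75 bases. Alternatives were DESeq2 1.42.0, other edgeR tests, scalings and filters, the replicate block and leaving out each library.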

Additional observations from a re-analysis of the deposited data

How the results depend on the processing

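With 2 libraries per group, the number of genes past the threshold depended on the method. It was 0 in edgeR's quasi-likelihood test (3221 genes at an unadjusted p under 0.05), 2000 without the filter on low counts, 981 with DESeq2, 815 with edgeR's exact test, 865 with its likelihood ratio test, and 0 to 31 on leaving out 1 library, where the lone library is assumed to vary like the other group. In these alternatives the number of members past the threshold stayed at 0 except without the filter, where it was 1, Krt5 (log2 fold change 3.04, adjusted p = 0.0149). Krt5 rested there on 1 library with 45 counts, and had an adjusted p of 0.307 with a filter of at least 50 counts in all. Without the filter, the test of Krt5 had 50870 degrees of freedom, against 5.70 with that other filter. It thus took the spread between libraries as almost known, and calls made without the filter are not comparable with those of the filtered test. Of the other lists, none of whose genes passed in the quasi-likelihood test with the filter, the hemidesmosome list had 3 to 5 lower genes past the threshold without the filter or with DESeq2, the exact test or the likelihood ratio test. In the same alternatives the desmosome list had 1 to 2 lower, the luminal list 1 to 2 higher and 2 to 3 lower, the fibroblast list 4 to 6 lower, the epithelial adhesion list 3 to 8 higher, and the alveolar type 2, type 1, club and ciliated lists 1 to 7, 2 to 6, 2 to 6 and 4 to 6 higher. Krt76 passed as lower without the filter and without saline replicate 1. Members with an unadjusted p under 0.05 numbered 0 to 3 over the alternatives, and 0 without saline replicate 2. Krt15, Krt17 and Krt14 kept their direction in all 14 alternatives, with adjusted p from 0.0894 to 0.671 for Krt15 and from 0.0811 to 0.636 for Krt17. The direction of Krt8 turned to 0.07 with upper-quartile scaling and to 0.03 on library totals, scalings that set the median log2 fold change of all genes to 0.13 and 0.09 in place of 0.02. On leaving out 1 library the log2 fold change ran from −0.07 to 0.21 for Krt7, −0.46 to 0.28 for Krt8, −0.40 to 0.39 for Krt18, −0.01 to 0.23 for Krt19, −0.06 to 0.19 for Epcam and −0.24 to 0.49 for Trp63. The cause of these changes was not tested.

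Same-numbered libraries come from different mice, and the labels tie them only by a number. Whether they shared a batch is not given in the sources used here. Their deviations from the group means had a Spearman's rho of 0.298 across genes, and with the replicate block 1822 genes passed the threshold, with 0 members, 6 lower hemidesmosome genes and 6 lower fibroblast genes among them. Depth limits Krt5 (0 to 45 counts) and leaves Krt15, Krt17 and Trp63 with 26 to 105 counts per library.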
